A study of Mus musculus with 8 samples.

Results

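The subunits of oxidative phosphorylation were examined in bulk RNA sequencing data of thymic epithelial cells (TECs). They were taken as the protein-coding genes whose symbols start with mt-, Nduf, Uqcr, Cox4, Cox5, Cox6, Cox7, Cox8 or Atp5, together with Sdha, Sdhb, Sdhc, Sdhd and Cyc1, and without the Ndufaf assembly factors. The rule used symbols and no expression value, and it selected 104 of the 56923 genes counted in each library, of which 13 lie on the mitochondrial genome and 91 in the nucleus. The data came from 8 libraries, 2 in each of 4 groups. All TECs were wild type (WT), carried no treatment by the labels and were sorted as EpCAM+ cells from E16.5 thymi of C57BL/6J mice, so cortical and medullary cells were profiled together. In vivo TECs were lysed directly after sorting. 2D-cultured TECs grew for 3 days on plates coated with laminin and were collected as a confluent monolayer. Organoids grew in Matrigel, a basement membrane-rich hydrogel, and were collected after 3 days (D3) or 7 days (D7). The 3 cultured groups were kept in the same TEC medium, which contained FGF7, a growth factor of the fibroblast growth factor family, and sorted cells were collected, and seeded in Matrigel, with thiazovivin, a kinase inhibitor. The labels call the 2 libraries of a group biological replicates, and the study names mice as the unit; whether embryos were pooled is not stated in the sources used here.

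Oxidative phosphorylation takes place in the inner mitochondrial membrane. Complex I (NADH dehydrogenase) and complex II (succinate dehydrogenase) pass electrons to ubiquinone, complex III (the cytochrome bc1 complex) passes them on to cytochrome c, and complex IV (cytochrome c oxidase) hands them to oxygen. Complexes I, III and IV pump protons, and complex V (ATP synthase) uses the proton gradient to make ATP. Complexes I, III, IV and V are built from subunits of both genomes, whereas complex II is encoded in the nucleus alone. The mitochondrial subunits are cut from long polycistronic transcripts, and each nuclear subunit has its own promoter.

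Counting on the mitochondrial genome was uneven, and the sequences show where. The coding end of mt-Co2, which encodes the complex IV subunit that takes electrons from cytochrome c, was among 5 mitochondrially encoded members with 0 counts in all 8 libraries. The others were mt-Nd4l of complex I, mt-Co3 of complex IV, and mt-Atp6 and mt-Atp8 of complex V. Every 50-base word of these 5 genes also occurs exactly in a copy of mitochondrial DNA on chromosome 1, at chr1:24650616-24654646 of GRCm39. The last 100 bases of mt-Co2 (chrM:7597-7696, plus strand) are identical to chr1:24653963-24654062 (minus strand), with 0 mismatches. The last 100 bases of mt-Nd1 (chrM:3608-3707, plus strand), a core membrane subunit of complex I, are shown for contrast with their nearest nuclear match at chr12:59309676-59309773 (plus strand), which has 17 mismatches over 98 bases, or 82.7% identity. In the mt-Nd1 pair the capitals mark the bases that differ.
mt-Co2: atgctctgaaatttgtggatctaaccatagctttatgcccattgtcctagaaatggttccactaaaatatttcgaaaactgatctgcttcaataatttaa
mt-Nd1: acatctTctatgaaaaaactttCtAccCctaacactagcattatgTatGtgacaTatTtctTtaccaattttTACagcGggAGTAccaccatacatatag
chromosome 12 match: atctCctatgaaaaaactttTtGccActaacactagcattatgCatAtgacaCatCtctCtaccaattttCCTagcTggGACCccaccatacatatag

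The zero counts are therefore listed here as values of the files and not as absence of the transcripts. The share of 50-base words with an exact copy elsewhere was 99.0% for mt-Nd3, which had between 5 and 49 counts per library, and 62.2% for mt-Nd4. No such copy was found for the other 6 mitochondrially encoded members with counts, mt-Nd1, mt-Nd2, mt-Nd5, mt-Nd6, mt-Cytb and mt-Co1. The 6 genes annotated within the chromosome 1 copy held at most 20 counts each, summed over the 8 libraries. How the authors' counting treated reads that map to more than 1 place is not given in the sources used here. The genes mt-Nd5 and mt-Nd6 overlap on opposite strands, and use of the strand in counting is not stated either, so their reads cannot be told apart with certainty.

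Promoter sequences of the nuclear members were available from RefSeq (build GRCm38.p6) for 69 of the 91, matched by symbol. Nuclear respiratory factor 1 (NRF1) is a textbook regulator of respiratory chain genes, and its motif was searched on both strands, as GCGCA followed by any base and GCGC, from 250 bases before to 50 bases after the start. It was found in 17 of 69 members (24.6%), against 1254 of 17491 genes with a promoter of the same length (7.17%). The motif of YY1, searched as AAGATGGCG, was found in 7 members (10.1%) and in 2.14% of all promoters, and the ETS motif CCGGAAGT in 5 members (7.25%) and in 5.69% of all promoters. Windows of 120 bases with NRF1 matches in capitals are printed for 3 members that recur in the results below, namely Ndufa11 (chr17:56717642-56717761, plus strand), Sdhd (chr9:50603850-50603969, minus strand) and Sdha (chr13:74350241-74350360, minus strand). A match of letters is a description of the window and not a site of binding.
Ndufa11: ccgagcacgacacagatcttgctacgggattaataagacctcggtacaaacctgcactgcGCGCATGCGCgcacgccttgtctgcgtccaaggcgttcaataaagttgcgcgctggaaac
Sdhd: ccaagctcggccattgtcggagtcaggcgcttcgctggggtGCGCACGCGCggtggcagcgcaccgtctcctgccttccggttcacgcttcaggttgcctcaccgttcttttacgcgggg
Sdha: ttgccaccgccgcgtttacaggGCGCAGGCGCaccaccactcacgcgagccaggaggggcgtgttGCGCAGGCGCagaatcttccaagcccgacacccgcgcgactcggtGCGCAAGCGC

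Counts on genes summed to between 5084715 and 7612532 per library, with 16.6% to 24.3% of them on 18S ribosomal RNA. Levels are given as CPM, the counts of a gene scaled to a common library size with TMM factors, and because each read comes from the 3′ end of a transcript they were compared for the same gene between groups. The summed CPM of 9 TEC markers was 6596 to 7055 in vivo, 5468 to 6229 in 2D, 1188 to 1320 in D3 organoids and 1666 to 1706 in D7 organoids, with none of the 9 at 0 in all libraries. The sum in 2D lay mostly in Krt18 (mean 3377 CPM), Krt8, Krt5 and Epcam. Foxn1, the transcription factor that defines TECs, had 1287 and 1945 counts in vivo, 47 and 26 in 2D, 52 and 69 in D3 organoids and 489 and 431 in D7 organoids. Psmb11, a marker of cortical TECs, had means of 540, 0.551, 0.743 and 110 CPM in the same order. Markers of thymocytes summed to 297 to 667 CPM in vivo and to at most 9.29 CPM elsewhere, and erythroid markers to 7.31 to 12.0 CPM in vivo and at most 2.17 CPM elsewhere. Mesenchymal markers reached 70.6 to 79.5 CPM in D7 organoids, 45.4 to 46.1 CPM in vivo, 29.7 to 35.8 CPM in 2D and 17.9 to 21.8 CPM in D3 organoids. The sum in D7 organoids lay mostly in Dcn (mean 52.3 CPM) and Lum (11.2 CPM). Other markers of this list went both ways. Means in D7 organoids and in vivo were 1.34 and 6.22 CPM for Col1a1 and 3.22 and 4.56 CPM for Col3a1. Pdgfrb had 0.124 and 6.21 CPM in the same order. Not lower in D7 organoids were Col1a2, at 6.34 and 6.18 CPM, and Pdgfra, at 0.533 and 0 CPM. The part of these other cells in the differences reported here was not tested. In bulk RNA, fewer cells of a type and less RNA per cell cannot be told apart.

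Transcripts of the mitochondrial genome stood highest in D3 organoids and lowest in 2D-cultured and D7 TECs, whereas the nuclear subunits summed to nearly the same level in all groups. The 13 mitochondrially encoded members summed to 21073 and 24396 CPM in the D3 libraries and to 17177 and 16402 CPM in vivo. The 2D libraries held 9210 and 12384 CPM, and the D7 libraries 12755 and 11138 CPM. The D3 libraries were above all others and the in vivo libraries above those of 2D and D7, while 2D and D7 overlapped. As mean ± SD (n = 2), the levels were 22734 ± 2349 CPM in D3 organoids, 16790 ± 548 CPM in vivo, 11947 ± 1143 CPM in D7 organoids and 10797 ± 2244 CPM in 2D. The mean in D3 organoids was thus 2.11 times that in 2D and 1.90 times that in D7 organoids, and the in vivo mean was 1.56 times that in 2D. No test was applied to these sums. The share of counts on 18S ribosomal RNA ran the other way by group mean, at 17.5% and 16.6% in D3 organoids, 20.8% and 20.6% in vivo, 20.7% and 24.1% in D7 organoids and 22.5% and 24.3% in 2D, and its part in the differences was not tested.

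**Figure D1:**
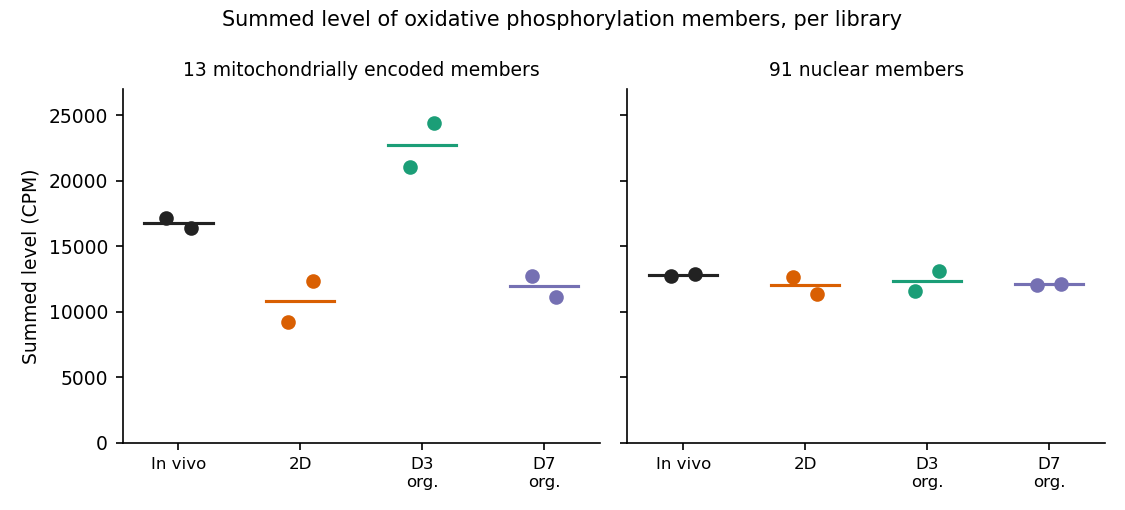
Summed level in CPM (vertical axis, from 0) of the 13 mitochondrially encoded members on the left and the 91 nuclear members on the right, for the 2 libraries of each group. Points are libraries and bars group means; the mitochondrial sums run from 9210 to 24396 CPM, and the nuclear sums stay between 11375 and 13105 CPM.

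The 91 nuclear members summed to 12757 and 12885 CPM in vivo, 12659 and 11375 CPM in 2D, 11598 and 13105 CPM in D3 organoids and 12036 and 12134 CPM in D7 organoids. The ranges of the 4 groups overlapped or lay close together. Accordingly, counts on mitochondrially encoded members were 1.82 and 1.86 times those on nuclear members within the D3 libraries, 1.35 and 1.27 times in vivo, 1.06 and 0.918 times in D7 organoids and 0.728 and 1.09 times in 2D. The 2 mitochondrial ribosomal RNAs, which are transcribed from the same genome, took 7.24% and 6.15% of counts in D3 organoids, 6.06% and 6.29% in vivo, 5.34% and 5.16% in D7 organoids and 3.55% and 5.06% in 2D. Their order of groups by mean was that of the protein-coding transcripts, although D3 and in vivo overlapped for the ribosomal RNAs.

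Each gene was tested with edgeR's quasi-likelihood test across 14504 genes, with Benjamini-Hochberg adjustment, and a gene is called higher or lower here where the adjusted p was at most 0.05. Fold changes are on the log2 scale with their standard error (SE). Of the 104 members, 91 passed the filter on low counts, 8 of the 13 mitochondrially encoded and 83 of the 91 nuclear ones. The 6 comparisons share groups, so they are not independent of each other. A total of 17 alternative settings were run, 8 of which left out 1 library each. Folds given below kept their call in every alternative in which the gene was tested unless it is stated otherwise. That was all 17 but for mt-Nd3, mt-Nd6, Cox6b2, Myc and Ppargc1a. These were tested in 16 because they fall below the minimum mean of 10 CPM that 1 of the settings required.

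The complex I gene mt-Nd1 stood highest in D3 organoids. For mt-Nd1 the libraries held 5231 and 6008 CPM in D3 organoids, 3809 and 3573 CPM in vivo, 2180 and 1741 CPM in D7 organoids and 1726 and 1956 CPM in 2D. The D7 and 2D libraries overlapped, and the other groups stood apart from them and from each other. By edgeR, mt-Nd1 was higher in D3 organoids than in 2D by a log2 fold of 1.61 (SE 0.15, adjusted p = 2.1e-07) and lower in D7 than in D3 organoids by a log2 fold of -1.52 (SE 0.15, adjusted p = 3.8e-06). It was also higher in vivo than in 2D (log2 fold 1.0, SE 0.15, adjusted p = 3.4e-05) and than in D7 organoids (0.91, SE 0.15, adjusted p = 0.00014). Against D3 organoids it was lower in vivo, with a log2 fold of -0.61 (SE 0.15, edgeR adjusted p = 0.0049), a call that was lost without replicate 2 of the in vivo TECs (-0.57, adjusted p = 0.052).

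The gene for the catalytic subunit of complex IV, mt-Co1 (chrM:5328-6872), had a different order of groups. It stood at 748 and 855 CPM in vivo, 679 and 636 CPM in D3 organoids, 399 and 350 CPM in D7 organoids and 276 and 363 CPM in 2D. In vivo libraries were the highest here, and D7 and 2D again overlapped. The log2 fold of in vivo TECs was 1.33 over 2D (SE 0.16, edgeR adjusted p = 3.4e-06) and 1.10 over D7 organoids (SE 0.16, adjusted p = 4.3e-05). In D3 organoids mt-Co1 was 1.04 higher than in 2D on the log2 scale (SE 0.16, edgeR adjusted p = 5.6e-05), and it was lower at D7 than at D3 by a log2 fold of -0.81 (SE 0.16, adjusted p = 0.0017).

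For mt-Cytb, the only mitochondrially encoded subunit of complex III, levels were 3476 and 3491 CPM in vivo, 2142 and 3041 CPM in 2D, 4314 and 5248 CPM in D3 organoids and 2401 and 1616 CPM in D7 organoids. The D3 libraries were highest, and those of D7 and 2D overlapped. The log2 fold was 0.88 for D3 organoids over 2D (SE 0.19, edgeR adjusted p = 0.0013) and -1.25 for D7 over D3 organoids (SE 0.19, adjusted p = 0.00028). The complex I genes mt-Nd4 and mt-Nd5 were also highest in D3 organoids. For mt-Nd4 the libraries held 5085 and 4298 CPM in vivo, 2587 and 3441 CPM in 2D, 5965 and 7619 CPM in D3 organoids and 3887 and 3599 CPM in D7 organoids. Its log2 fold was 1.17 for D3 organoids over 2D (SE 0.17, edgeR adjusted p = 2.4e-05) and -0.86 for D7 over D3 organoids (SE 0.16, adjusted p = 0.0015).

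The levels of mt-Nd5 were 601 and 559 CPM in vivo, 267 and 414 CPM in 2D, 640 and 622 CPM in D3 organoids and 413 and 387 CPM in D7 organoids. It was higher in vivo than in 2D (log2 fold 0.77, SE 0.18, edgeR adjusted p = 0.002) and higher in D3 organoids than in 2D (0.89, SE 0.18, adjusted p = 0.00065). The call of mt-Nd5 between D7 and D3 organoids (-0.66, SE 0.17, edgeR adjusted p = 0.013) was lost without D3 replicate 1 (-0.64, adjusted p = 0.064) and without D7 replicate 2 (-0.60, adjusted p = 0.12). By contrast, mt-Nd2 (3449 and 3610 CPM in vivo, 2196 and 3154 CPM in 2D, 4217 and 4247 CPM in D3 organoids, 3470 and 3443 CPM in D7 organoids) had a log2 fold of -0.29 between D7 and D3 organoids (SE 0.16, edgeR adjusted p = 0.21). Without the filter on low counts this difference was called (-0.35, adjusted p = 0.038).

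Of the low-count members, mt-Nd3 had another order of groups. For mt-Nd3 the libraries held 7.48 and 5.64 CPM in vivo, 8.91 and 9.10 CPM in 2D, 4.90 and 5.31 CPM in D3 organoids and 1.86 and 0.989 CPM in D7 organoids, so that 2D was highest and D7 lowest. The log2 fold of D7 organoids over 2D was -2.59 (SE 0.53, edgeR adjusted p = 0.00074), and nearly the whole gene is copied on chromosome 1. It was also called lower in D7 than in D3 organoids, a call lost in 5 of 16 alternatives. For mt-Nd6, the only member encoded on the light strand, D3 organoids had 22.6 and 10.1 CPM, D7 organoids 2.73 and 2.77 CPM, in vivo TECs 2.44 and 9.17 CPM and 2D-cultured TECs 6.18 and 5.75 CPM. Its fall from D3 to D7 (log2 fold -2.56, SE 0.56, edgeR adjusted p = 0.0038) was not called without D3 replicate 1 (-1.87, adjusted p = 0.09).

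**Figure D2:**
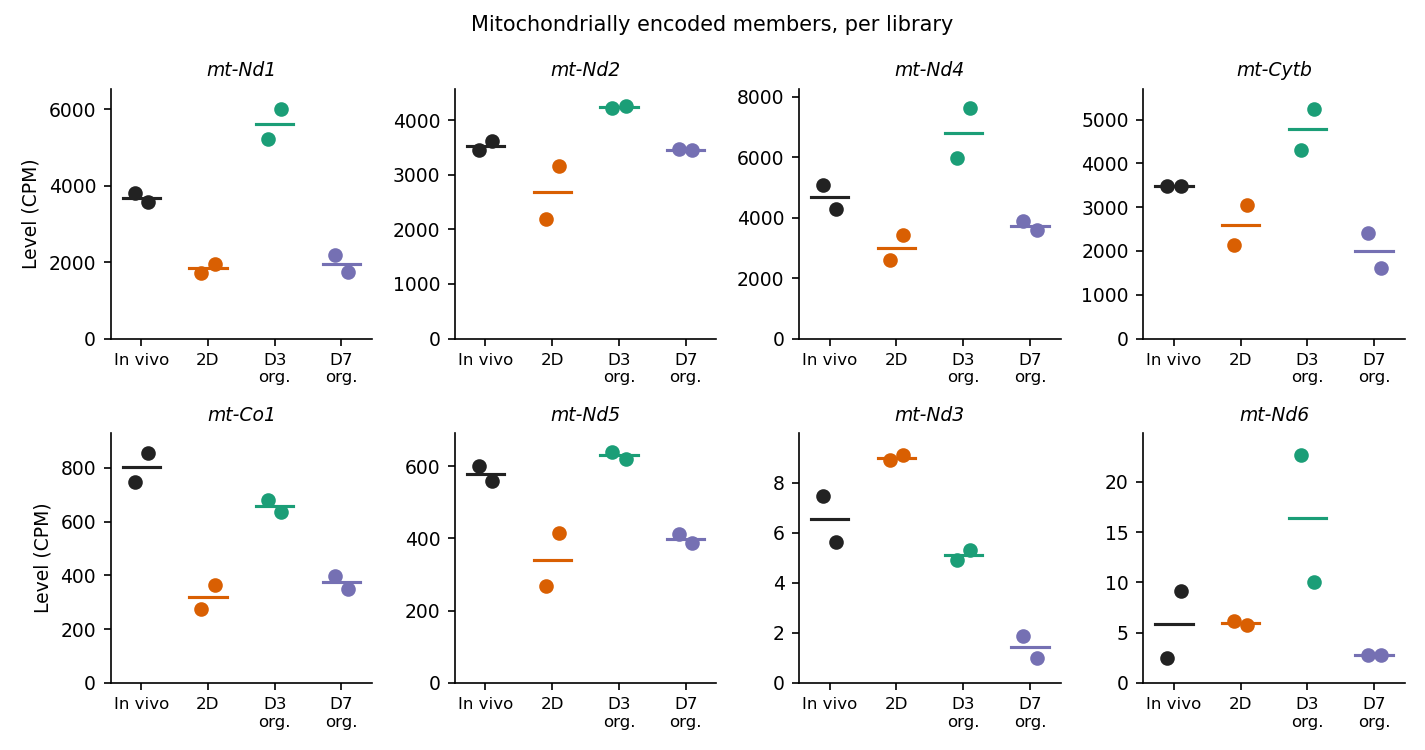
Level in CPM (vertical axes, from 0, one scale per gene) of the 8 mitochondrially encoded members with counts, for the 2 libraries of each group. Points are libraries and bars group means; mt-Nd1 falls from 5231 and 6008 CPM in D3 organoids to 2180 and 1741 CPM in D7 organoids, and mt-Co1 is highest in vivo at 748 and 855 CPM.

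Counted over the 8 tested members, 7 were higher in D3 organoids than in 2D and 0 lower, where 38.3% of all genes tested were called in either direction. Between D7 and D3 organoids, 0 were higher and 7 lower, where 20.8% of all genes were called, and 4 were lower without D3 replicate 1. In vivo TECs had 5 members higher and 0 lower than 2D, where 41.6% of all genes were called, and 3 were called without in vivo replicate 1 or without 2D replicate 1. Against D7 organoids, in vivo TECs had 5 higher and 0 lower, where 34.8% of all genes were called, and 2 were called without D7 replicate 2. Against D3 organoids, 0 were higher and 3 lower in vivo, where 28.2% of all genes were called, and 1 was called without in vivo replicate 2. D7 organoids and 2D differed in mt-Nd3 alone, where 45.5% of all genes were called, although 2 were called without 2D replicate 1 or without D7 replicate 1 and 4 without 2D replicate 2, and scaling by library size alone called 4 higher and 1 lower. The median log2 fold of the 8 members was 0.97 for D3 organoids over 2D and -1.06 for D7 over D3 organoids, against 0.03 and 0.06 over all genes.

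Nuclear members changed in both directions in each of the 6 comparisons, and their median log2 fold stayed near that of all genes. In vivo TECs had 9 of the 83 tested nuclear members higher than 2D, where 21.7% of all genes were higher, and 6 lower, where 19.9% were lower. The share called, 18.1%, was smaller than the 41.6% of all genes. Against D3 organoids, in vivo TECs had 6 higher (all genes 14.0%) and 5 lower (all genes 14.1%), or 13.3% called against 28.2% of all genes. D3 organoids had 10 higher (all genes 19.3%) and 8 lower (all genes 19.1%) than 2D, or 21.7% against 38.3%. In the comparisons that involve D7 organoids the share was above that of all genes with all 8 libraries in the fit. Between in vivo TECs and D7 organoids 34 members were called, 17 higher in vivo (all genes 16.8%) and 17 lower (all genes 18.0%), or 41.0% against 34.8%. D7 organoids had 30 higher (all genes 24.4%) and 22 lower (all genes 21.1%) than 2D, or 62.7% against 45.5%. They had 13 higher (all genes 10.9%) and 15 lower (all genes 9.91%) than D3 organoids, or 33.7% against 20.8%. The difference between these shares was not tested, and for the first 2 of these comparisons it was nearly absent without D7 replicate 2. With the filter at a mean of 10 CPM, the shares were 45.5% against 44.2%, 66.2% against 55.2% and 45.5% against 30.4%, respectively. The median log2 fold of the nuclear members was 0.09 for in vivo TECs over 2D (all genes 0.06), 0.16 for D7 organoids over 2D (all genes 0.10) and 0.01 for D7 over D3 organoids (all genes 0.06).

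The D7 calls leaned on 1 library, D7 replicate 2, the library with the fewest counts (5084715). Without it, the nuclear members called fell to 18 for in vivo TECs against D7 organoids, or 21.7% against 21.3% of all genes. For D7 organoids against 2D they fell to 27, or 32.5% against 33.2% of all genes, and for D7 against D3 organoids to 11, or 13.3% against 8.34%. The share of all genes called thus fell as well. Without 2D replicate 1, the count for D7 organoids against 2D was 33 (39.8%, all genes 33.6%), and without D3 replicate 1 that for D7 against D3 organoids was 17 (20.5%, all genes 11.6%). For D3 organoids against 2D, 11 were called without 2D replicate 2. For in vivo TECs against D3 organoids, 6 were called without D3 replicate 1 and 7 without in vivo replicate 1. The balance of higher and lower calls also moved with scaling. With no scaling beyond library size, the median of all genes shifted from 0.06 to 0.24 for in vivo TECs over 2D, from 0.03 to 0.29 for D3 organoids over 2D and from 0.10 to 0.31 for D7 organoids over 2D. The nuclear calls then became 23 higher and 4 lower, 28 higher and 4 lower, and 35 higher and 12 lower, respectively.

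**Figure D3:**
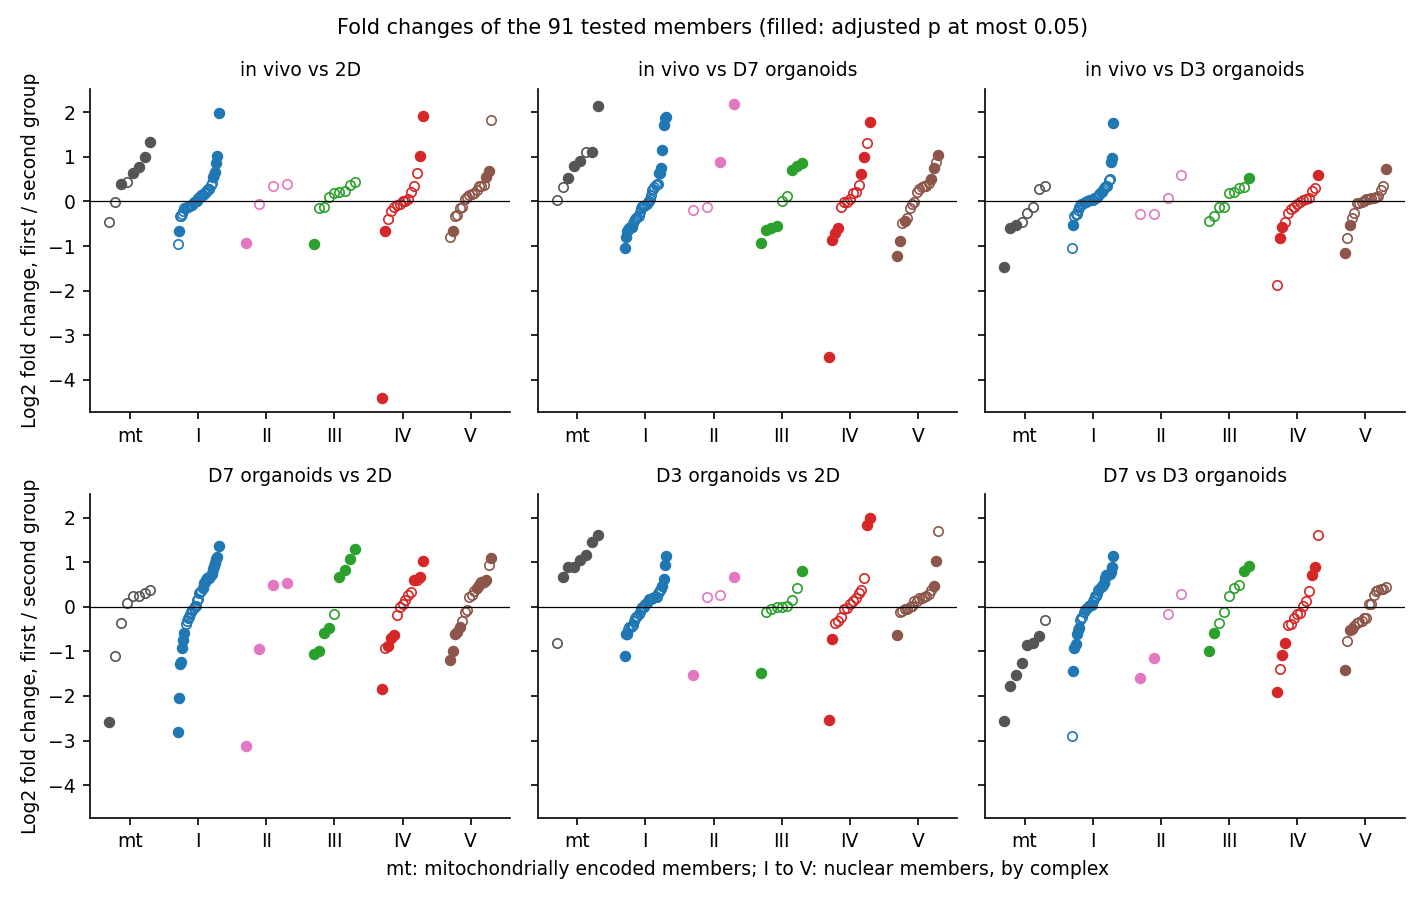
Log2 fold change (vertical axes) of each tested member in the 6 comparisons, with the mitochondrially encoded members (mt) beside the nuclear members of complexes I to V. Each point is a gene, with the called ones filled; in D7 against D3 organoids all 8 mt points lie below 0 and 7 of them are called, whereas the nuclear members spread to both sides, with 13 called higher and 15 lower. The lowest point, Cox7a1 of complex IV for in vivo TECs against 2D, rests on 0 and 3 counts in vivo.

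Of the 83 tested nuclear members, 23 were called in none of the 6 comparisons and 60 (72.3%) in at least 1, where 69.5% of all genes tested were. A set of 22 catalytic core and regulatory subunits held 16 (72.7%) that were called in at least 1 comparison and 6 that were not. Among the latter were Ndufs1 and Ndufs3 of complex I, Cyc1 of complex III, Cox5b of complex IV and Atp5if1, the inhibitor of ATP synthase. Cyc1, which encodes cytochrome c1, lay between 46.1 and 64.6 CPM in all 8 libraries, and Atp5if1 between 434 and 561 CPM.

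Complex I held the largest number of nuclear members, 37 of 38 tested. By complex, 5 were higher and 1 lower in vivo than in 2D, 15 higher and 7 lower in D7 organoids than in 2D, and 9 higher and 5 lower in D7 than in D3 organoids. These are 16.2%, 59.5% and 37.8% of the tested members, against 41.6%, 45.5% and 20.8% of all genes. Ndufa11 (chr17:57024322-57031247, plus strand, GRCm39), an accessory membrane subunit whose promoter is printed above, stood at 205 and 273 CPM in vivo, 52.6 and 68.1 CPM in 2D, 63.4 and 77.3 CPM in D3 organoids and 136 and 173 CPM in D7 organoids. The in vivo libraries were highest and those of 2D and D3 lowest, with D7 in between and no overlap with either. The log2 fold of Ndufa11 was 1.99 for in vivo TECs over 2D (SE 0.20, edgeR adjusted p = 3.6e-07), 1.76 over D3 organoids (SE 0.20, adjusted p = 2.4e-06) and 1.13 for D7 over D3 organoids (SE 0.19, adjusted p = 0.00068). For D7 organoids over 2D it was 1.35 (SE 0.20, edgeR adjusted p = 3e-05), and 0.76 with a trend on GC content taken out, as described below.

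Ndufb1, another accessory membrane subunit, had another order. It stood at 183 and 132 CPM in vivo, 184 and 165 CPM in 2D, 63.4 and 97.7 CPM in D3 organoids and 53.7 and 30.4 CPM in D7 organoids, so both organoid groups lay below both others. Its log2 fold was -1.11 for D3 organoids over 2D (SE 0.24, edgeR adjusted p = 0.0016), -2.04 for D7 organoids over 2D (SE 0.25, adjusted p = 5.3e-06) and 1.89 for in vivo TECs over D7 organoids (SE 0.25, adjusted p = 1.9e-05). Ndufa5, a subunit of the arm that projects into the matrix, was low in 2D alone. The libraries held 71.1 and 66.8 CPM in 2D, against 155 and 126 CPM in vivo, 151 and 154 CPM in D3 organoids and 133 and 167 CPM in D7 organoids. The log2 fold of Ndufa5 over 2D was 1.03 in vivo (SE 0.17, edgeR adjusted p = 0.00012) and 1.14 in D3 organoids (SE 0.17, adjusted p = 4.8e-05).

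Ndufa13, also known as GRIM-19, was highest in D7 organoids, at 174 and 177 CPM, with 120 and 124 CPM in D3 organoids, 95.1 and 91.3 CPM in 2D and 77.8 and 92.5 CPM in vivo. In vivo TECs were lower than D7 organoids by a log2 fold of -1.04 (SE 0.16, edgeR adjusted p = 6.5e-05), and D7 organoids were higher than 2D by 0.91 (SE 0.16, adjusted p = 0.00016). Ndufb3, an accessory membrane subunit, was lowest in D7 organoids, at 45.0 and 27.3 CPM, against 101 and 97.6 CPM in D3 organoids (log2 fold -1.44, SE 0.24, edgeR adjusted p = 0.00047). It stood at 87.4 and 76.3 CPM in vivo and at 105 and 67.2 CPM in 2D. The core subunit Ndufv1, which binds NADH, was at 104 and 124 CPM in D7 organoids and 69.1 and 62.5 CPM in D3 organoids. Its call (log2 fold 0.79, SE 0.17, edgeR adjusted p = 0.0036) was lost without D3 replicate 2 (0.65, adjusted p = 0.051), without D7 replicate 2 (0.66, adjusted p = 0.063) and with the GC trend taken out (0.38, adjusted p = 0.12).

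All 4 subunits of complex II, the enzyme shared with the citric acid cycle, were tested. Sdhd, a membrane anchor (chr9:50507642-50515195, minus strand, GRCm39), had 43.5 and 29.5 CPM in 2D, 24.5 and 13.8 CPM in vivo, 12.8 and 12.6 CPM in D3 organoids and 5.09 and 2.97 CPM in D7 organoids. The 4 groups did not overlap. Its log2 fold was -1.52 for D3 organoids over 2D (SE 0.32, edgeR adjusted p = 0.001), -3.13 for D7 organoids over 2D (SE 0.36, adjusted p = 1.9e-06) and 2.19 for in vivo TECs over D7 organoids (SE 0.36, adjusted p = 0.00015). The other membrane anchor, Sdhc, stood at 127 and 116 CPM in vivo, 152 and 101 CPM in 2D, 152 and 142 CPM in D3 organoids and 84.5 and 45.9 CPM in D7 organoids. D7 organoids were again lowest, and the log2 fold of Sdhc over D3 organoids was -1.16 (SE 0.24, edgeR adjusted p = 0.0025).

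The catalytic subunits of complex II were lowest in 2D instead. Sdha, the flavoprotein (chr13:74469359-74498436, minus strand, GRCm39), had 188 and 165 CPM in D3 organoids, 151 and 163 CPM in D7 organoids, 136 and 154 CPM in vivo and 110 and 112 CPM in 2D, where it was lowest. It was higher in D3 organoids than in 2D by a log2 fold of 0.67 (SE 0.16, edgeR adjusted p = 0.0025). The iron-sulfur subunit Sdhb was at 160 and 167 CPM in D7 organoids, 121 and 147 CPM in D3 organoids, 135 and 150 CPM in vivo and 115 and 109 CPM in 2D. Thus D7 organoids were lowest for the 2 anchors and 2D-cultured TECs for the 2 catalytic subunits of a complex with 4 subunits. The rest of the order was not shared within either pair. A test of this difference between genes was not made.

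**Figure D4:**
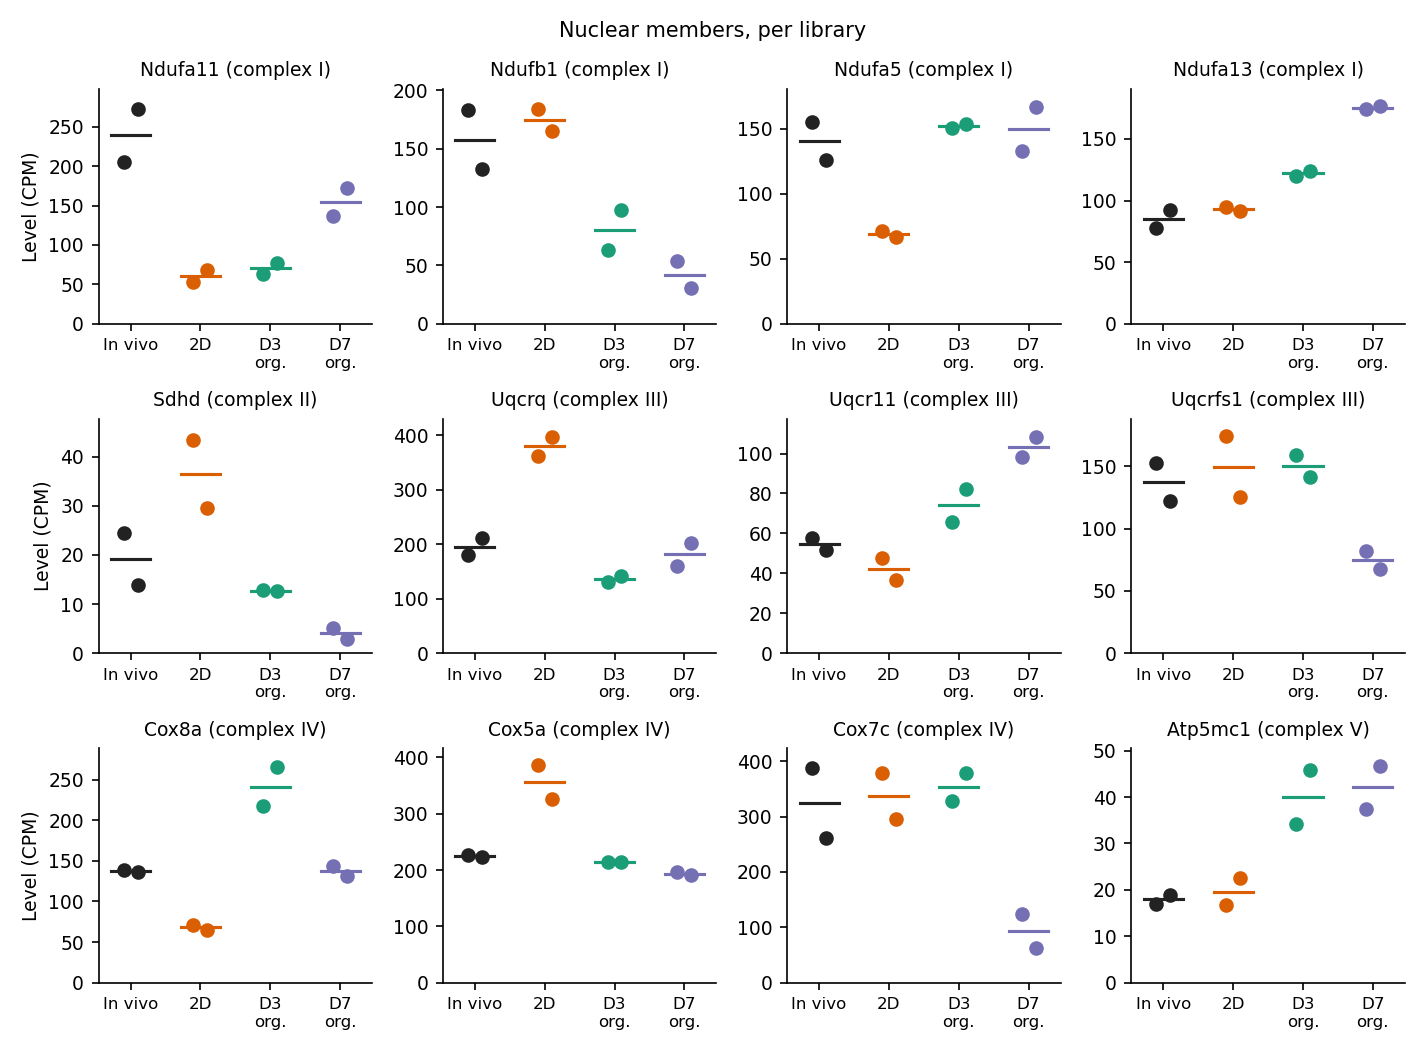
Level in CPM (vertical axes, from 0, one scale per gene) of 12 nuclear members of complexes I to V, for the 2 libraries of each group. Points are libraries and bars group means; Ndufa11 is lowest in 2D and D3 organoids, Sdhd and Cox7c are lowest in D7 organoids (2.97 to 5.09 CPM and 62.9 to 124 CPM), and Uqcrq is highest in 2D at 362 and 397 CPM.

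In complex III, all 9 nuclear members were tested, of which 4 were higher and 4 lower in D7 organoids than in 2D (88.9%, all genes 45.5%). Uqcrq, a small accessory subunit, had 362 and 397 CPM in 2D, 180 and 211 CPM in vivo, 130 and 141 CPM in D3 organoids and 161 and 201 CPM in D7 organoids. It was highest in 2D, with log2 folds over 2D of -0.95 in vivo (SE 0.16, edgeR adjusted p = 0.00012), -1.48 in D3 organoids (SE 0.16, adjusted p = 1.4e-06) and -1.07 in D7 organoids (SE 0.16, adjusted p = 4e-05). The small subunits Uqcr10 and Uqcr11 were highest in D7 organoids. Uqcr11 stood at 98.5 and 108 CPM there, 65.7 and 82.3 CPM in D3 organoids, 57.6 and 51.5 CPM in vivo and 47.8 and 36.6 CPM in 2D, with a log2 fold of 1.29 for D7 organoids over 2D (SE 0.19, edgeR adjusted p = 3.8e-05) and -0.92 for in vivo TECs over D7 organoids (SE 0.19, adjusted p = 0.0011). Uqcr10 stood at 200 and 220 CPM in D7 organoids, 96.8 and 124 CPM in D3 organoids, 125 and 146 CPM in vivo and 109 and 90.0 CPM in 2D, and it was higher in D7 than in D3 organoids by a log2 fold of 0.93 (SE 0.17, edgeR adjusted p = 0.0012).

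Uqcrfs1, which encodes the Rieske iron-sulfur protein, was lowest in D7 organoids. Its libraries held 82.4 and 67.4 CPM there, 159 and 141 CPM in D3 organoids, 152 and 122 CPM in vivo and 174 and 125 CPM in 2D. The fall of Uqcrfs1 from D3 to D7 was -1.0 on the log2 scale (SE 0.19, edgeR adjusted p = 0.0014). The core protein Uqcrc2 had 327 and 269 CPM in vivo, 272 and 238 CPM in 2D, 239 and 235 CPM in D3 organoids and 194 and 171 CPM in D7 organoids, and was higher in vivo than in D7 organoids by 0.70 (SE 0.16, edgeR adjusted p = 0.002). Its partner Uqcrc1 had 113 and 119 CPM in D7 organoids and 70.7 and 76.1 CPM in 2D, a log2 fold of 0.66 (SE 0.19, edgeR adjusted p = 0.01). That call was lost without 2D replicate 1 (0.60, adjusted p = 0.081) and without D7 replicate 2 (0.62, adjusted p = 0.052), and with the GC trend taken out the fold of Uqcrc1 was -0.00 (adjusted p = 0.99).

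Among the 15 nuclear members of complex IV that were tested, Cox8a, the ubiquitous isoform of the smallest subunit, was highest in D3 organoids. It had 218 and 265 CPM there, 144 and 132 CPM in D7 organoids, 139 and 136 CPM in vivo and 71.3 and 64.8 CPM in 2D. D7 organoids and in vivo TECs overlapped, with D3 above and 2D below them. The log2 fold of Cox8a was 1.83 for D3 organoids over 2D (SE 0.16, edgeR adjusted p = 1.2e-07), 1.01 for in vivo TECs over 2D (SE 0.16, adjusted p = 7.5e-05), -0.81 for in vivo TECs over D3 organoids (SE 0.16, adjusted p = 0.00078) and -0.81 for D7 over D3 organoids (SE 0.16, adjusted p = 0.0017). Cox5a, a subunit on the matrix side, was highest in 2D, at 387 and 326 CPM, against 226 and 222 CPM in vivo, 214 and 215 CPM in D3 organoids and 196 and 191 CPM in D7 organoids. Its log2 fold over 2D was -0.67 in vivo (SE 0.15, edgeR adjusted p = 0.0014) and -0.73 in D3 organoids (SE 0.15, adjusted p = 0.00072).

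Cox7c, a small membrane subunit, fell most of the complex IV members between D3 and D7. It had 327 and 379 CPM in D3 organoids and 124 and 62.9 CPM in D7 organoids, beside 387 and 261 CPM in vivo and 379 and 295 CPM in 2D. The log2 fold was -1.90 (SE 0.26, edgeR adjusted p = 8.8e-05), with -2.49 without D7 replicate 1 and -1.50 without D7 replicate 2. Of its 50-base words, 99.2% have an exact copy elsewhere in the genome, so reads of Cox7c may be split between copies. Ndufa4, a member of complex IV despite its name, had 121 and 186 CPM in D3 organoids, 79.1 and 65.4 CPM in D7 organoids, 128 and 94.4 CPM in vivo and 135 and 101 CPM in 2D, and fell from D3 to D7 by 1.08 on the log2 scale (SE 0.22, edgeR adjusted p = 0.0023).

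Cox7a2l was higher in D7 organoids, at 121 and 135 CPM, than in D3 organoids, at 63.0 and 74.2 CPM (log2 fold 0.90, SE 0.17, edgeR adjusted p = 0.0012). It had 80.6 and 89.6 CPM in vivo and 86.9 and 83.2 CPM in 2D. Cox7b, another small subunit, had 317 and 331 CPM in vivo, 275 and 232 CPM in 2D, 178 and 254 CPM in D3 organoids and 192 and 133 CPM in D7 organoids. It was higher in vivo than in D7 organoids by 0.99 on the log2 scale (SE 0.19, edgeR adjusted p = 0.00074). The regulatory subunit Cox4i1 had 272 and 325 CPM in D7 organoids and 150 and 213 CPM in D3 organoids, a log2 fold of 0.72 (SE 0.18, edgeR adjusted p = 0.0095). This call was lost without D3 replicate 1 (0.48, adjusted p = 0.12), without D7 replicate 2 (0.59, adjusted p = 0.11) and with the GC trend taken out (0.35, adjusted p = 0.14).

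Of the tissue-restricted isoforms of complex IV, 5 were not tested because of low counts. Cox7b2 and Cox8c had 0 counts in all 8 libraries, Cox4i2 had 0 or 1 count in each, Cox8b at most 3 counts and Cox6a2 at most 7 counts. Ndufa4l2, a hypoxia-responsive paralogue of Ndufa4, had 9 and 18 counts in the 2D libraries and 0 counts in the other 6. Ndufa4l2 was not tested either, at 1.64 and 3.34 CPM in 2D. The filter required 1 CPM in 3 libraries, so a gene present in only 1 group of 2 libraries could not pass. Cox7a1, the muscle form, had 0 and 3 counts in vivo and 6.55 and 3.90 CPM in 2D, beside 2.36 and 3.16 CPM in D7 organoids and 0.338 and 1.40 CPM in D3 organoids. It was lower in vivo than in 2D (edgeR adjusted p = 0.0044), a call kept in the 16 alternatives in which it was tested, and no fold is given against so few counts. Cox6b2, the testis form, was lowest in 2D, at 0.727 and 3.16 CPM, with 8.70 and 6.06 CPM in vivo, 7.60 and 7.83 CPM in D3 organoids and 2.23 and 3.76 CPM in D7 organoids. Its call in vivo over 2D (log2 fold 1.92, edgeR adjusted p = 0.02) was lost without in vivo replicate 1 and without 2D replicate 1. Also without counts in any library were Ndufb11b and 1 of the 2 rows named Atp5po. These rare transcripts made up a small part of the summed level, and the ubiquitous forms Cox6b1 (164 to 224 CPM) and Cox7a2 (149 to 263 CPM) were called in none of the comparisons.

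In complex V, 18 of 19 nuclear members were tested, with 6 higher and 5 lower in D7 organoids than in 2D and 0 higher and 3 lower in D7 than in D3 organoids. These are 61.1% and 16.7% of the tested members, against 45.5% and 20.8% of all genes. The ring of subunit c is encoded by 3 genes that yield the same mature protein. Atp5mc3 had 673 and 608 CPM in vivo, 615 and 552 CPM in 2D, 534 and 540 CPM in D3 organoids and 429 and 332 CPM in D7 organoids. Atp5mc1 had 17.1 and 18.9 CPM in vivo, 16.7 and 22.5 CPM in 2D, 34.1 and 45.9 CPM in D3 organoids and 37.5 and 46.7 CPM in D7 organoids. Thus Atp5mc3 was lowest in D7 organoids, and Atp5mc1 was higher in both organoid groups than in the other TECs. By edgeR, in vivo TECs over D7 organoids had a log2 fold of 0.75 for Atp5mc3 (SE 0.15, adjusted p = 0.0011) and of -1.22 for Atp5mc1 (SE 0.24, adjusted p = 0.00081), and over D3 organoids of -1.15 for Atp5mc1 (SE 0.24, adjusted p = 0.0015). Atp5mc2 stayed at or below 3.10 CPM, but all of its 50-base words occur elsewhere in the genome, so its level is uncertain.

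Atp5f1e, the epsilon subunit of the rotor stalk, was highest in vivo. It had 217 and 245 CPM there, 159 and 128 CPM in 2D, 131 and 148 CPM in D3 organoids and 182 and 184 CPM in D7 organoids, with a log2 fold of 0.68 over 2D (SE 0.16, edgeR adjusted p = 0.0023) and 0.73 over D3 organoids (SE 0.16, adjusted p = 0.0022). Atp5mk, a small membrane subunit, was highest in 2D, at 147 and 131 CPM, against 93.5 and 83.4 CPM in vivo (log2 fold -0.66, SE 0.16, edgeR adjusted p = 0.0036), 84.0 and 94.1 CPM in D3 organoids and 70.3 and 69.2 CPM in D7 organoids. Atp5pf, a subunit of the peripheral stalk, had 116 and 132 CPM in D3 organoids, 59.5 and 32.6 CPM in D7 organoids, 110 and 80.5 CPM in vivo and 127 and 85.0 CPM in 2D, and was lower in D7 than in D3 organoids by a log2 fold of -1.41 (SE 0.25, edgeR adjusted p = 0.00095). Of the core subunits, Atp5f1a ranged from 538 to 889 CPM and Atp5f1b from 427 to 734 CPM over the 8 libraries. Atp5f1a was called higher in vivo and in D3 organoids than in 2D, calls lost in 2 and 3 of 17 alternatives. Atp5f1b was called lower in D7 organoids than in 2D and than in D3 organoids, calls each lost in 2 of 17 alternatives.

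Genes annotated on the opposite strand overlap the 3′ end of mt-Co1, Ndufa5, Ndufb1, Uqcr10, Uqcr11, Uqcrc2, Cox5a, Cox6a2, Cox7a1, Cox8b, Ndufa4l2, Atp5if1, Atp5mk and Atp5pf among the members described, so some of their reads could come from the partner. Genes annotated on the same strand overlap the 3′ end of mt-Nd1, mt-Nd2, mt-Nd4l, mt-Atp6, mt-Atp8 and the Atp5po row without counts. How reads in such overlaps were counted is not given in the sources used here. For 75 of the 91 nuclear members no copy of a 50-base word was found elsewhere in the genome. In 5 members a copy was found for at least 50% of the words. These 5 were Ndufs5, Cox7c, Atp5mc2, Atp5mg and Atp5mj.

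The nuclear members called higher and those called lower differed in base composition of their 3′ end, the stretch that the libraries read. The median GC content of the last 300 bases was 49.8% for the 30 members higher in D7 organoids than in 2D, 39.7% for the 22 lower and 46.7% for the 31 not called. Comparisons without D7 organoids had fewer calls and also a gap. The medians were 49.7% for the 9 members higher in vivo than in 2D and 41.2% for the 6 lower. They were 47.2% for 10 higher and 38.3% for 8 lower in D3 organoids than in 2D. For in vivo TECs against D3 organoids they were 42.3% for 6 higher and 52.7% for 5 lower. Across the 83 members, Spearman's correlation of GC content with the log2 fold of D7 over D3 organoids was 0.50, and over the 14375 other genes it was 0.19. For D7 organoids over 2D it was 0.55 and 0.16, for in vivo TECs over D7 organoids -0.47 and -0.21, and for in vivo TECs over 2D 0.13 and -0.01. For D3 organoids over 2D it was 0.25 and 0.06, and for in vivo TECs over D3 organoids -0.15 and -0.07. These are descriptions across genes of the same libraries, and genes are not independent replicates. The same correlation was also present between the 2 libraries of a group, where the members gave 0.38 in vivo, 0.45 in 2D, 0.14 in D3 organoids and 0.47 in D7 organoids.

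**Figure D5:**
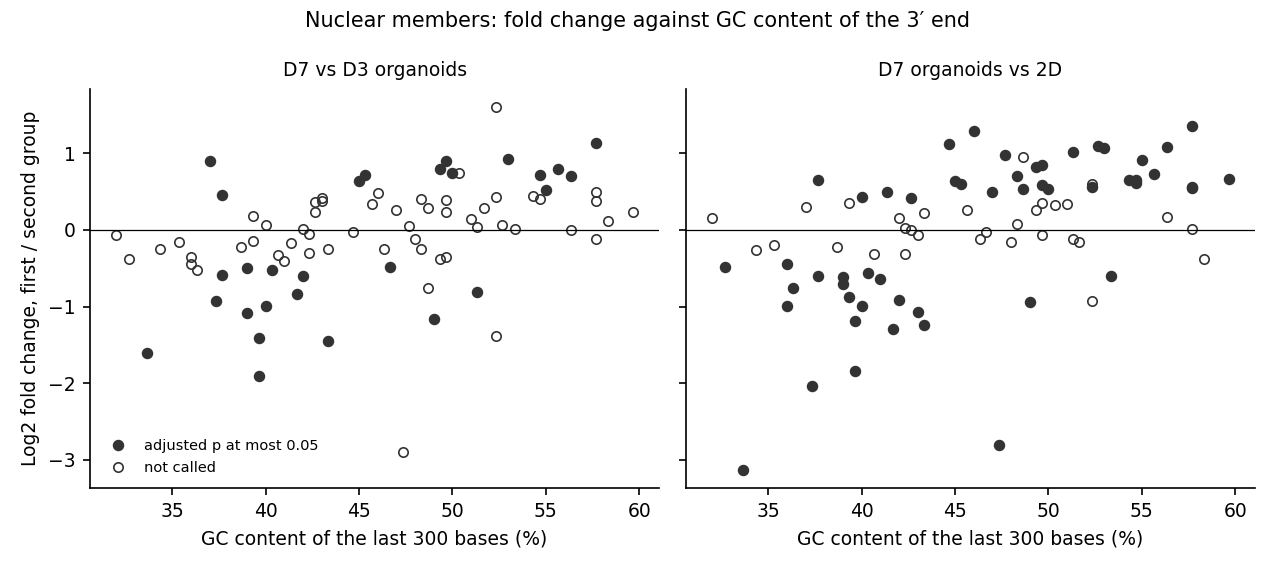
Log2 fold change (vertical axes) against GC content of the last 300 bases in percent (horizontal axes) for the 83 tested nuclear members. Each point is a gene, with the called ones filled; points rise from left to right for D7 over D3 organoids (Spearman's correlation 0.50) and for D7 organoids over 2D (0.55).

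A fit in which a trend on this GC content was taken out of each library, an alternative chosen after seeing the data, changed the balance of calls. Nuclear members in D7 organoids against 2D became 15 higher and 25 lower, in place of 30 and 22. In D7 against D3 organoids they became 9 higher and 18 lower, in place of 13 and 15. In vivo TECs had 21 higher and 6 lower than D7 organoids in place of 17 and 17, and 7 higher and 3 lower than D3 organoids in place of 6 and 5, while D3 organoids had 8 higher and 12 lower than 2D in place of 10 and 8. The share of nuclear members called was then 32.5% for in vivo TECs against D7 organoids (all genes 32.2%), 48.2% for D7 organoids against 2D (all genes 44.0%) and 32.5% for D7 against D3 organoids (all genes 19.8%). The mitochondrially encoded members remained at 7 higher in D3 organoids than in 2D and 7 lower in D7 than in D3 organoids. In vivo TECs had 4 of them higher than 2D and 4 higher than D7 organoids, in place of 5 and 5. Against D3 organoids, 4 were lower in vivo in place of 3. D7 organoids had 1 higher and 1 lower than 2D in place of 0 and 1. Of the nuclear calls, 23 for D7 organoids against 2D were kept in all alternatives in which the gene was tested, 12 higher and 11 lower. For D7 against D3 organoids 11 were kept, 4 higher and 7 lower, and for in vivo TECs against D7 organoids 13 were kept, 10 higher and 3 lower. The part of base composition in the differences between groups was not tested beyond this fit.

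Other genes of the pathway were described by lists of their roles. Among 35 tested genes that maintain, transcribe or translate mitochondrial DNA, 5 were higher and 1 lower in vivo than in 2D (median log2 fold 0.10), 9 higher and 3 lower in vivo than in D7 organoids (0.34), 5 higher and 0 lower in D3 organoids than in 2D (0.01) and 0 higher and 5 lower in D7 than in D3 organoids (-0.14). Over all genes these medians were 0.06, -0.01, 0.03 and 0.06. The share of the list called was 17.1%, 34.3%, 14.3% and 14.3%, against 41.6%, 34.8%, 38.3% and 20.8% of all genes. Tfam, which packages mitochondrial DNA and starts its transcription, stood at 104 ± 0.792 CPM in vivo, 52.6 ± 8.30 CPM in 2D, 82.1 ± 8.07 CPM in D3 organoids and 64.1 ± 0.717 CPM in D7 organoids (mean ± SD, n = 2), and was higher in vivo than in 2D by 0.98 on the log2 scale (SE 0.18, edgeR adjusted p = 0.00024). Slirp, which stabilises mitochondrial messenger RNAs together with Lrpprc, was at 99.6 ± 15.5 CPM in vivo, 108 ± 21.0 CPM in 2D, 79.5 ± 1.06 CPM in D3 organoids and 48.7 ± 1.80 CPM in D7 organoids. Slirp was higher in vivo than in D7 organoids by a log2 fold of 1.03 (SE 0.18, edgeR adjusted p = 0.00035).

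Of 11 nuclear regulators, 4 were higher and 1 lower in vivo than in D7 organoids, and 1 was higher and 2 lower in D7 than in D3 organoids, or 45.5% and 27.3% of the list against 34.8% and 20.8% of all genes. Ppargc1a, the coactivator PGC-1alpha that drives mitochondrial biogenesis, was highest in D7 organoids, at 23.8 ± 0.390 CPM, with 8.30 ± 1.70 CPM in D3 organoids, 2.40 ± 1.85 CPM in 2D and 0.983 ± 0.405 CPM in vivo (mean ± SD, n = 2). It was lower in vivo than in D7 organoids by a log2 fold of -4.54 (SE 0.52, edgeR adjusted p = 3.5e-06). Myc went the other way, at 14.8 ± 3.73 CPM in vivo, 13.2 ± 5.26 CPM in 2D, 9.39 ± 0.368 CPM in D3 organoids and 2.54 ± 0.606 CPM in D7 organoids, with a log2 fold of 2.56 for in vivo TECs over D7 organoids (SE 0.42, edgeR adjusted p = 0.00015). The order of Ppargc1a across the groups was thus not that of the mitochondrially encoded members.

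Among 54 tested assembly factors, 5 were higher and 6 lower in vivo than in 2D, and 11 higher and 4 lower in vivo than in D7 organoids, or 20.4% and 27.8% against 41.6% and 34.8% of all genes. Cox17, the copper chaperone of complex IV, was highest in 2D, at 78.5 ± 6.0 CPM, with 31.1 ± 3.95 CPM in vivo, 10.7 ± 4.19 CPM in D3 organoids and 7.77 ± 4.28 CPM in D7 organoids. Its log2 fold over 2D was -1.34 in vivo (SE 0.28, edgeR adjusted p = 0.0011) and -2.85 in D3 organoids (SE 0.31, adjusted p = 1.2e-06). Of 76 tested mitochondrial ribosomal proteins, 5 were higher and 21 lower in D7 organoids than in 2D (median log2 fold -0.12 against 0.10 over all genes), and 2 higher and 9 lower in D7 than in D3 organoids (-0.06 against 0.06). The share called was 34.2% and 14.5%, against 45.5% and 20.8% of all genes.

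Of 17 genes of the citric acid cycle and pyruvate dehydrogenase, 1 was higher and 5 lower in vivo than in 2D, 1 higher and 8 lower in D7 organoids than in 2D, and 0 higher and 6 lower in D7 than in D3 organoids (median log2 fold -0.34 against 0.06 over all genes). The share called was 35.3%, 52.9% and 35.3%, against 41.6%, 45.5% and 20.8% of all genes. Mdh2, mitochondrial malate dehydrogenase, was highest in 2D, at 403 ± 52.9 CPM against 241 ± 14.9 CPM in vivo, a log2 fold of -0.74 for in vivo TECs over 2D (SE 0.15, edgeR adjusted p = 0.00063). Cs, citrate synthase, was at 212 ± 17.9 CPM in D3 organoids and 68.5 ± 43.2 CPM in D7 organoids, with a log2 fold of -1.61 (SE 0.28, edgeR adjusted p = 0.00077) that was -2.48 without D7 replicate 1. Among 13 tested genes of electron carriers and metabolite exchange, 0 were higher and 3 lower in D7 than in D3 organoids (23.1%, all genes 20.8%). Slc25a5, an exchanger of ADP and ATP, was one of them, at 164 ± 31.0 CPM in D3 and 68.5 ± 21.1 CPM in D7 organoids (log2 fold -1.25, SE 0.21, edgeR adjusted p = 0.00061).

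Gpd2, which feeds electrons of glycerol 3-phosphate to ubiquinone, was highest in 2D, at 462 ± 25.2 CPM, with 131 ± 3.95 CPM in vivo, 143 ± 9.72 CPM in D3 organoids and 146 ± 3.14 CPM in D7 organoids. The log2 fold of in vivo TECs over 2D was -1.82 (SE 0.15, edgeR adjusted p = 2.7e-08). Etfa, part of the flavoprotein that takes electrons from fatty acid oxidation, was highest in vivo, at 227 ± 54.7 CPM against 55.7 ± 15.3 CPM in D7 organoids (log2 fold 2.02, SE 0.21, edgeR adjusted p = 9.7e-07). In a last list of 11 genes for protein import, chaperones and inner membrane organisation, 0 were higher and 5 lower in D7 than in D3 organoids (45.5%, all genes 20.8%). In vivo TECs had 3 of the list higher and 1 lower than D7 organoids (36.4%, all genes 34.8%). The 1 lower was Phb1, prohibitin, at 13.7 ± 4.58 CPM in vivo and 45.2 ± 1.49 CPM in D7 organoids (log2 fold -1.71, SE 0.25, edgeR adjusted p = 4.9e-05). Against 2D, 1 was higher and 3 lower in vivo (36.4%, all genes 41.6%). The 1 higher was Hspe1, the co-chaperonin of the matrix, at 382 ± 34.8 CPM in vivo and 201 ± 31.6 CPM in 2D (log2 fold 0.92, SE 0.16, edgeR adjusted p = 0.00019).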

How the data were processed

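QuantSeq 3′ libraries were sequenced on a NextSeq 500, and per the study's methods the authors used STAR for alignment to GRCm39. The deposited values are whole-number counts of reads per Ensembl gene, 1 file per library, with no normalization or filter; the labels name R 4.1.2, edgeR and limma for later steps, and none of those results were used. The annotation release, the strand and the treatment of reads with several matches are not given in the sources used here. Libraries held 5084715 to 7612532 counts, which limits the precision of low genes, and replicates of a group differed by more than counting noise.

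Symbols and positions came from a GENCODE annotation of GRCm39. The filter, after the study's, required 1 CPM or more in 3 or more libraries, and TMM factors were 0.880 to 1.09. All 8 libraries entered 1 model of group means in R 4.3.3 with edgeR 4.0.16 (quasi-likelihood test), limma 3.58.1 and DESeq2 1.42.0, with Benjamini-Hochberg adjustment over 14504 genes and a threshold of 0.05; an exact test of 2 against 2 libraries cannot go below p = 0.333, and the p-values measure the spread between these libraries. Copies of 50-base words were taken from ungapped blastn 2.17.0 hits without mismatches. A copied word inside a longer hit with mismatches could therefore be missed. GC content was computed in Python 3.11.15 with pandas 2.3.3, nearest matches with blastn 2.17.0 and figures with matplotlib 3.10.9. The fit was tested on simulated counts. Alternatives were DESeq2's size factors, no scaling beyond library size, library sizes without mitochondrially encoded and ribosomal RNA genes, limma-voom (the study's test), DESeq2's Wald test, no filter on low counts, a minimum mean of 10 CPM, a block for replicate number, each library left out in turn and, chosen after seeing the data, the GC trend.

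The members and gene lists were chosen with earlier results of these data known. The text names the mitochondrially encoded members, 22 core and regulatory subunits, isoform pairs and, per comparison and complex, the nuclear member with the largest fold in each direction among those called, where each library of the higher group reached 10 CPM and the 2 groups were separate. The values of 1 member under this rule are not reported here. Members outside it are named only for a shared sequence or a count of 0. Which comparisons of a named gene are printed, and which genes of the lists, was chosen after their values were seen.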

Additional observations from a re-analysis of the deposited data

How the results depend on the processing

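The counts of members called rest on 2 libraries per group. Leaving out each library in turn moved the nuclear counts to between 12 and 19 for in vivo TECs against 2D, 18 and 35 for in vivo TECs against D7 organoids, 6 and 12 for in vivo TECs against D3 organoids, 27 and 51 for D7 organoids against 2D, 11 and 19 for D3 organoids against 2D, and 11 and 29 for D7 against D3 organoids. The mitochondrially encoded counts moved to between 3 and 6, 2 and 5, 1 and 3, 1 and 4, 5 and 7, and 4 and 7 in the same order. With no scaling beyond library size, 27 nuclear members were called for in vivo TECs against 2D and 32 for D3 organoids against 2D, and 5 mitochondrially encoded ones for D7 organoids against 2D. The last count was 2 with limma-voom, 3 with no filter on low counts, 2 with the replicate block and 2 with the GC trend taken out. With no filter on low counts, 5 mitochondrially encoded members were called for in vivo TECs against D3 organoids. The cause of these shifts was not tested. The summed level of the nuclear members became 11882 CPM in D7 organoids with DESeq2's size factors. With no scaling beyond library size it became 13009 CPM in vivo, 10753 CPM in 2D and 12441 CPM in D7 organoids, and with library sizes that left out mitochondrially encoded and ribosomal RNA genes 12562 CPM in vivo and 11856 CPM in D7 organoids. For Uqcrc1 in D7 organoids against 2D, the fold with the GC trend taken out was -0.0024 on the log2 scale (adjusted p = 0.99).

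Libraries share replicate numbers across groups, but nothing says that a number marks a shared litter or day. The differences between replicates 1 and 2 correlated between groups at 0.0257 to 0.132 over 14504 genes, all 6 positive but not all above 0.1, so the numbers were not taken to pair the libraries. With the replicate block, nuclear members called were 20, 40, 12, 52, 24 and 36 for in vivo TECs against 2D, D7 and D3 organoids, D7 and D3 organoids against 2D, and D7 against D3 organoids. Transcripts of 1 CPM or less rest on a handful of counts, and no difference in them was detectable at this depth unless a value is given.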
